A study of Mus musculus with 12 samples.

Results

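Cd163, Lyve1, Mrc1, Timd4, Folr2, Fcna, Pf4, Chi3l3 and Cbr2 are 9 genes known from tissue-resident perivascular macrophages and from alternatively activated macrophages. They were taken by symbol from a table of raw counts for 23420 genes in mouse melanomas, and all 9 were found. They were chosen partly by their lower counts with anti–PD-1 in nonobese mice, so every value that involves tumors of nonobese mice is given below as a description, with no test result. The response to anti–PD-1 in obese mice is the comparison tested, since the rule that chose the genes does not name it, but it was known from earlier results when they were chosen.

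The study asked how obesity changes the response of a melanoma to blockade of PD-1, an inhibitory receptor of T cells. B16-F10, a melanoma line of C57BL/6 origin, was implanted under the skin of the flank of male C57BL/6J mice that had been put on their diets when young. Obese mice had eaten a Western diet enriched in cholesterol for 15 weeks and nonobese mice its matched control diet. Treatment began at a palpable tumor and consisted of the blocking antibody 29F.1A12 or, in the control arm of each diet, the isotype antibody 2A3. Both were dosed at 10 mg/kg into the peritoneum, with 3 injections per week. RNA of the whole tumor was sequenced from 3 tumors in each of the 4 groups, which are named below by diet and antibody. All mice carried the same tumor line and all received an antibody, so there is no untreated group.

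Macrophages that live along blood vessels take up debris, hemoglobin and matrix fragments through a set of scavenger and lectin receptors, and they secrete chemokines and complement factors. Alternatively activated macrophages, the state induced by the cytokines IL-4 and IL-13, share the mannose receptor with them and add chitinase-like proteins. In tumors, cells with these genes are known as a subset of tumor-associated macrophages that lies close to vessels. Some of the genes have other sources, since Lyve1 also marks lymphatic endothelium and Pf4 platelets and megakaryocytes. In RNA of a whole tumor, fewer macrophages and less RNA of a gene per macrophage cannot be told apart.

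Counts per tumor summed to between 14022929 and 33871843, with the smallest library in the obese isotype group (replicate 2). Levels are given as CPM (counts scaled to a common library size) after TMM scaling, a correction for composition, and 3 counts, the detection floor used here, correspond to between 0.0882 and 0.212 CPM. A list of 7 melanoma genes summed to between 24720 and 30283 CPM in every tumor, while the 9 macrophage genes together summed to between 20.1 and 97.98 CPM. Of the 23420 genes, 13095 had enough counts to be tested, among them 8 of the 9. Timd4 was not tested.

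The 9 genes lie at separate places in the genome (GRCm38, GENCODE annotation) and all are protein coding. Cd163 lies on chr6:124304656-124330527, Lyve1 on chr7:110850607-110863239, Mrc1 on chr2:14229392-14332057 and Timd4 on chr11:46810800-46844332. Folr2 lies on chr7:101839988-101857194, Fcna on chr2:25624666-25628030 and Pf4 on chr5:90772435-90773383. Chi3l3, whose current symbol is Chil3, lies on chr3:106147554-106167564 and Cbr2 on chr11:120729489-120732114. Exons of Fcna and Folr2 overlap an annotated antisense gene (Fcnaos and Gm10602), and the sources used here do not give the strand setting of HTSeq, so reads of these pairs cannot be told apart. The near copies Chi3l4, of Chi3l3, and Fcnb, of Fcna, had at most 1 count in any tumor. Related genes of the other families had more, with 0 to 13 counts for Folr1, beside Folr2, and 2 to 28 for Ppbp, beside Pf4.

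The sequences upstream of these genes, which lie far apart in the genome, are shown as a description. The comparisons in which all 8 tested genes shared a direction use nonobese tumors, by which the genes were partly chosen. Shared control of the genes was not tested. The RefSeq (GRCm38.p6) windows used here covered 8 of the 9, with 9 windows of 250 bases before a start, and held none for Lyve1. The hexamer GGAAGT, a core bound by PU.1 and other ETS factors, was searched on both strands after the sequences had been seen. It occurred in 6 of the 9 windows and in 19.7% of all 32851 RefSeq windows of that length. The letters TGCTGA, part of the site of MAF factors, occurred in 5 of the 9 and in 16.1% of all windows, and the palindromic STAT motif in 0 of the 9 and in 5.85%, both on either strand. Capitals mark GGAAGT or its reverse complement ACTTCC, and a match describes the letters and not a bound site. Pf4 (chr5:90772185-90772434, plus strand) is shown for its single copy close to the start. Chi3l3 (chr3:106167565-106167814, minus strand) and Folr2 (chr7:101857195-101857440, minus strand) are the 2 genes past the thresholds in obese mice, and each stretch shown holds 2 copies. Cd163 (chr6:124304401-124304650, plus strand), a defining scavenger receptor of these cells, holds 0 copies.
Pf4: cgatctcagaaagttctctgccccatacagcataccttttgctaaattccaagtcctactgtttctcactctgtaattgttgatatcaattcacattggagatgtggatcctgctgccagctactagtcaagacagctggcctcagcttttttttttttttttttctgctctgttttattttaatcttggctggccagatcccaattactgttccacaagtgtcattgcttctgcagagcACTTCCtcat
Chi3l3: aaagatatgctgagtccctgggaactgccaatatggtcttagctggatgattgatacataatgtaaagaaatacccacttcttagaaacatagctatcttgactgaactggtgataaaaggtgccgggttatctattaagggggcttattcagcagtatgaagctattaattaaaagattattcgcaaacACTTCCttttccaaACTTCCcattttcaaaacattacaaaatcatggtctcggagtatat
Folr2: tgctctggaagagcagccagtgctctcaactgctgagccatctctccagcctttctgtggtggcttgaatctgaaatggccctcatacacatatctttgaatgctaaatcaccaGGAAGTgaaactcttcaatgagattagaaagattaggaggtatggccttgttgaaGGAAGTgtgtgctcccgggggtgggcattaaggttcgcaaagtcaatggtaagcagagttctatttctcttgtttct
Cd163: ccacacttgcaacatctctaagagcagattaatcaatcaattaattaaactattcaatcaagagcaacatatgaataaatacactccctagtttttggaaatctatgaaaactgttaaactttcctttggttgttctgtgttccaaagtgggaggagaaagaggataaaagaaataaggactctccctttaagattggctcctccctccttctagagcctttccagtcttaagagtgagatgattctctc

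In isotype-treated nonobese mice the genes differed widely in level. Per kilobase of exon, Cbr2 (15.5 ± 4.79 CPM per kb, SD, n = 3) and Pf4 (10.9 ± 4.24) were highest, and their tumors overlapped. Mrc1 (4.55), Folr2 (4.13) and Fcna (2.56) followed, then Lyve1 (1.37), Cd163 (1.17), Chi3l3 (0.478) and Timd4 (0.124). The tumors of neighbors in this order overlapped, except those of Pf4 with Mrc1 and of Chi3l3 with Timd4. With anti–PD-1 in obese mice the highest levels were again those of Cbr2 (10.3 CPM per kb) and Pf4 (9.47), followed by Folr2 (4.94) and Mrc1 (3.60), whose tumors overlapped (2.23 to 6.55 and 2.40 to 4.27).

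**Figure D1:**
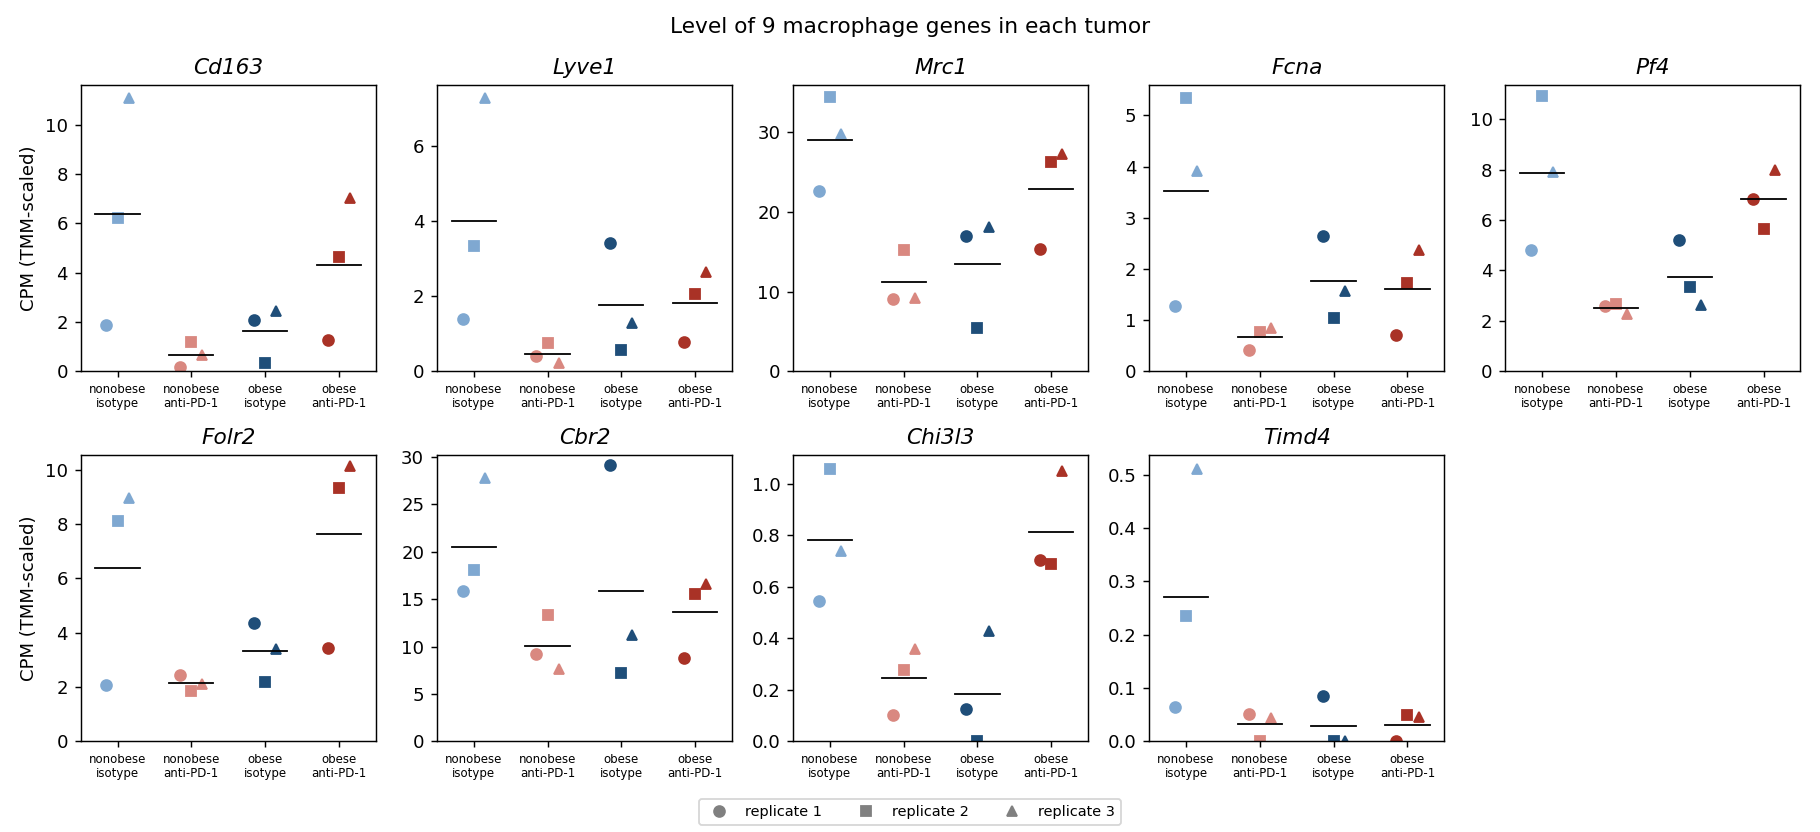
Each panel gives the level of a gene in CPM after TMM scaling (vertical axis, from 0) for the 4 groups (horizontal axis), with a point per tumor, its shape giving the replicate number, and a line at the group mean of 3 tumors. Pf4 and Chi3l3 are the genes whose 3 obese anti–PD-1 tumors all lie above the 3 obese isotype tumors, while Lyve1, Fcna and Cbr2 overlap there.

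Among the receptors, Folr2 passed the test for a rise with anti–PD-1 in obese mice, a call that 4 of the 6 obese tumors each decided, while Cd163, whose estimate was larger, Mrc1 and Lyve1 did not pass. Cd163, the receptor that clears hemoglobin bound to haptoglobin, was at 1.86, 6.20 and 11.1 CPM in the 3 nonobese isotype tumors and at 0.152, 1.21 and 0.669 CPM in the nonobese anti–PD-1 tumors. In obese mice it was at 2.06, 0.350 and 2.43 CPM with isotype and at 1.27, 4.62 and 7.03 CPM with anti–PD-1. The nonobese groups did not overlap, whereas obese anti–PD-1 replicate 1 lay among the isotype tumors. The obese log2 fold change of Cd163 was 1.39 (standard error 0.77, edgeR FDR 0.705), beside -3.15 (standard error 0.83) in nonobese mice.

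Mrc1, the mannose receptor, which binds sugars on microbes and spent glycoproteins, was at 22.6, 34.5 and 29.8 CPM with isotype and at 9.05, 15.2 and 9.14 CPM with anti–PD-1 in nonobese mice. Its levels in obese mice were 16.95, 5.39 and 18.1 CPM with isotype and 15.3, 26.3 and 27.2 CPM with anti–PD-1. As with Cd163, only the treated obese tumor labelled replicate 1 lay within the range of the isotype tumors. Its log2 fold change in obese mice was 0.76 (standard error 0.37, edgeR FDR 0.668), and in nonobese mice it was -1.37.

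Folr2, folate receptor beta, was at 2.09, 8.11 and 8.97 CPM with isotype and at 2.44, 1.86 and 2.10 CPM with anti–PD-1 in nonobese mice. Tumors of obese mice had it at 4.37, 2.17 and 3.39 CPM with isotype and at 3.45, 9.35 and 10.1 CPM with anti–PD-1. Both pairs of groups overlapped, through nonobese isotype replicate 1 and through obese anti–PD-1 replicate 1. Folr2 rose in obese mice by 1.20 on the log2 scale (standard error 0.49, edgeR FDR 0.583), and its nonobese value was -1.58. The rise was no longer past the thresholds without isotype replicate 2 or 3 or anti–PD-1 replicate 2 or 3, with log2 fold changes of 1.00, 1.23, 1.05 and 0.96. With the replicate number as a block in the model it was 1.06 and did not pass either.

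Lyve1, a receptor for the matrix sugar hyaluronan, was at 1.38, 3.32 and 7.27 CPM with isotype and at 0.407, 0.742 and 0.223 CPM with anti–PD-1 in nonobese mice. Across the obese tumors it was at 3.41, 0.560 and 1.29 CPM with isotype and at 0.776, 2.07 and 2.65 CPM with anti–PD-1. The range of the obese isotype tumors enclosed that of the treated tumors, with isotype replicate 1 the highest of the 6. For Lyve1, the log2 fold change in obese mice was 0.05, with a 95% confidence interval from -1.44 to 1.54 (edgeR FDR 0.991), against -3.05 in nonobese mice. Timd4, a receptor for phosphatidylserine on dying cells, had 2, 8 and 9 counts in the nonobese isotype tumors and 2 counts summed over each of the other 3 groups. In 10 of the 12 tumors it was at or under the floor of 3 counts, so a response in obese mice was not detectable at this depth.

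Among the secreted products, Chi3l3 rose in obese mice and Pf4 was higher in every treated obese tumor, while Fcna was not. Chi3l3, a chitinase-like lectin also known as Ym1, was at 0.546, 1.06 and 0.738 CPM with isotype and at 0.102, 0.278 and 0.357 CPM with anti–PD-1 in nonobese mice. In obese mice it had 3, 0 and 9 counts (0.126, 0 and 0.430 CPM) with isotype and 10, 14 and 23 counts (0.705, 0.689 and 1.05 CPM) with anti–PD-1. The groups did not overlap in either diet, and they were ordered in opposite ways. Chi3l3 rose in obese mice by 2.02 on the log2 scale (standard error 0.72, edgeR FDR 0.486), and in nonobese mice the value was -1.63. These are few counts, and the isotype tumor with 0 was the smallest library. The value was 1.57 without that tumor (isotype replicate 2) and 3.36 without isotype replicate 3.

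Pf4, platelet factor 4, a chemokine, was at 4.82, 10.9 and 7.90 CPM with isotype and at 2.59, 2.66 and 2.27 CPM with anti–PD-1 in nonobese mice. In obese mice it was at 5.22, 3.36 and 2.63 CPM with isotype and at 6.84, 5.66 and 7.98 CPM with anti–PD-1. Here too no tumor of one group entered the range of the other, in either diet. The obese log2 fold change of Pf4 was 0.86 (standard error 0.31, edgeR FDR 0.517), below the fold change of 2 that the thresholds ask for, and the nonobese value was -1.65. A list of 10 platelet and megakaryocyte genes summed to between 1.48 and 3.07 CPM in obese isotype tumors and between 1.87 and 3.47 CPM in obese anti–PD-1 tumors, 3 of its genes were tested and 0 passed the thresholds. Its median log2 fold change was 0.40, and its part in the Pf4 result was not tested.

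Fcna, ficolin A, a plasma lectin that starts the lectin pathway of complement, was at 1.28, 5.35 and 3.92 CPM with isotype and at 0.407, 0.773 and 0.847 CPM with anti–PD-1 in nonobese mice. Its levels in obese mice were 2.65, 1.05 and 1.58 CPM with isotype and 0.705, 1.72 and 2.37 CPM with anti–PD-1. The obese groups overlapped over most of their range. Its log2 fold change in obese mice was -0.13, with a 95% confidence interval from -1.33 to 1.06 (edgeR FDR 0.969), against -2.35 in nonobese mice.

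The enzyme of the set did not pass the test in obese mice. Cbr2, a carbonyl reductase that resident macrophages express, was at 15.8, 18.0 and 27.8 CPM with isotype and at 9.25, 13.3 and 7.62 CPM with anti–PD-1 in nonobese mice. Tumors of obese mice had it at 29.1, 7.20 and 11.3 CPM with isotype and at 8.81, 15.5 and 16.6 CPM with anti–PD-1. Obese isotype replicate 1 was the highest of all 12 tumors for this gene and replicate 2 of the same group the lowest. For Cbr2, the log2 fold change in obese mice was -0.22, with a 95% confidence interval from -1.13 to 0.68 (edgeR FDR 0.926), and its nonobese value of -1.02, a little beyond a fold change of 2, was the one closest to 0.

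In obese mice, 2 of the 8 tested genes were therefore upregulated under the rule of the study (unadjusted P below 0.05 together with a fold change of more than 2), beside 2.24% of all genes tested. Downregulated genes numbered 0 of 8, beside 0.206% of all genes. The unadjusted P was below 0.05 for 3 of the 8 (Pf4, Folr2 and Chi3l3), beside 7.57% of all genes. At an FDR below 0.05 the number was 0 of 8 by edgeR and 0 of 8 by DESeq2, beside 0% of all genes by edgeR and 0.802% by DESeq2. The spread was estimated over all 12 tumors, and with only the 6 obese tumors in the model 2 of the 8 were likewise upregulated. With the replicate number as a block the number was 1, since Folr2 lost its call. The log2 fold change was above 0 for 6 of the 8, beside 47.6% of all genes, and the median was 0.81, beside -0.01 over all genes tested. All 3 treated tumors lay above all 3 isotype tumors for 2 of the 8, Pf4 and Chi3l3, beside 5.45% of all genes.

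The calls in obese mice rested on single tumors, and their number became 0 without obese anti–PD-1 replicate 3, 1 without obese isotype replicate 2 or obese anti–PD-1 replicate 2, and 3 without obese anti–PD-1 replicate 1. Chi3l3 was no longer past the thresholds without obese isotype replicate 1 or obese anti–PD-1 replicate 3, and Folr2 was not in the 4 cases of a left-out tumor given above. Calls were gained by Pf4 without isotype replicate 1 (1.21), Mrc1 without isotype replicate 3 (1.03) and Cd163 without anti–PD-1 replicate 1 (1.83). The lowest values of these genes were 0.67 for Pf4 without isotype replicate 3, 0.40 for Mrc1 without isotype replicate 2 and 0.86 for Cd163 without anti–PD-1 replicate 3. The signs of Lyve1, Fcna and Cbr2 were not stable, since leaving out single tumors moved their obese log2 fold changes over -0.33 to 0.99, -0.51 to 0.31 and -0.55 to 0.58, with the highest value each time without obese isotype replicate 1.

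In nonobese mice, by which the genes were partly chosen, the median log2 fold change with anti–PD-1 was -1.64, beside 0.02 over all genes, and single values ran from -3.15 (Cd163) to -1.02 (Cbr2). All 8 tested genes had a value below 0 (45% of all genes did). All 3 treated tumors lay below all 3 isotype tumors for 7 of the 8 (5.37% of all genes), Folr2 being the exception. The choice of the genes used these values, so they are no evidence of a response.

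**Figure D2:**
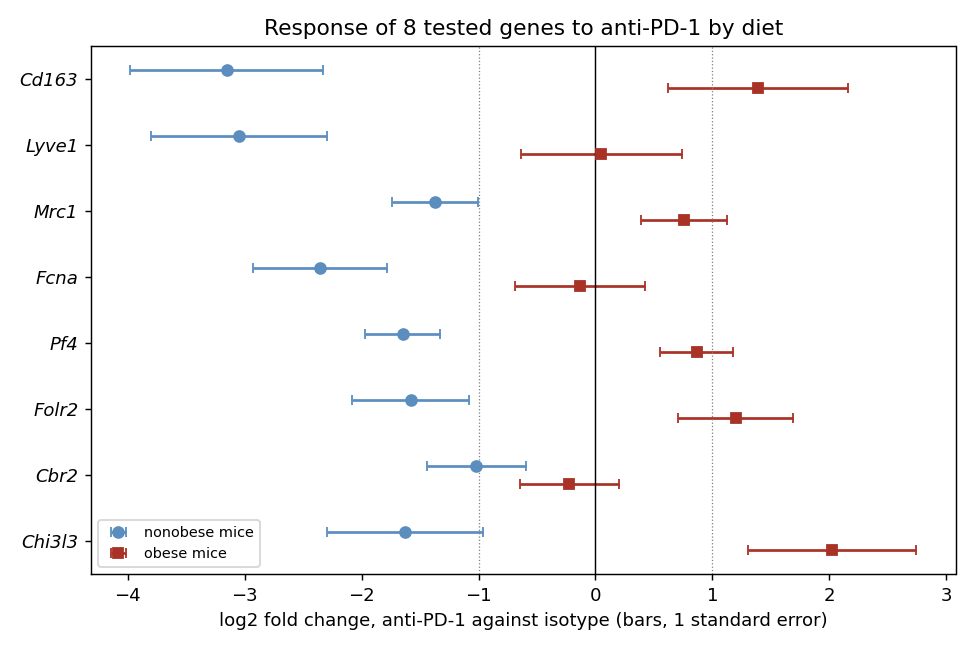
The horizontal axis gives the log2 fold change of anti–PD-1 against isotype for the 8 tested genes (vertical axis), with circles for nonobese mice, squares for obese mice, bars of 1 standard error and dotted lines at a fold change of 2 in either direction. Nonobese values run from -3.15 for Cd163 to -1.02 for Cbr2, and obese values from -0.22 for Cbr2 to 2.02 for Chi3l3, with Lyve1 (0.05), Fcna (-0.13) and Cbr2 close to 0.

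The same tumors compared by diet give the levels from which each response started. With isotype, all 8 tested genes had lower levels in obese than in nonobese mice (47.9% of all genes did). The median log2 difference was -1.08, from -1.96 for Chi3l3 and -1.93 for Cd163 to -0.36 for Cbr2. All obese tumors lay below all nonobese ones for 2 of the 8, Mrc1 and Chi3l3 (9.02%). With anti–PD-1, all 8 were higher in obese than in nonobese mice (46.9%), by a median log2 difference of 1.56, from 0.44 for Cbr2 to 2.61 for Cd163. There, 6 of the 8 had every obese tumor above every nonobese one (6.54%), the exceptions being Fcna (1.24) and Cbr2. The obese response minus the nonobese response had a median of 2.65 on the log2 scale and was above 0 for all 8 (45.6%). It was 4.54 for Cd163 and 3.65 for Chi3l3, and it was smallest for Cbr2 (0.80). These comparisons share tumors with one another and with the one by which the genes were chosen, so these values are descriptions and no test result is given for them.

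The genes also varied together among tumors of the same group. Obese isotype replicate 2 was the lowest tumor of its group for 7 of the 8 tested genes, nonobese isotype replicate 1 for 8 and obese anti–PD-1 replicate 1 for 6, whereas obese anti–PD-1 replicate 3 was the highest of its group for all 8. After each group's mean was subtracted from log2 CPM, the median Pearson correlation of a gene with the other 7, over 12 tumors, was 0.77 for Lyve1, 0.75 for Mrc1, 0.73 for Cd163, 0.68 for Fcna, 0.65 for Cbr2 and 0.62 for Folr2. It was lower for Pf4 (0.50) and Chi3l3 (0.36). The closest pairs were Lyve1 with Cbr2 (0.93) and Fcna with Folr2 (0.87). The points of these correlations share the library, its depth and its mix of cells, and the correlations are descriptions.

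**Figure D3:**
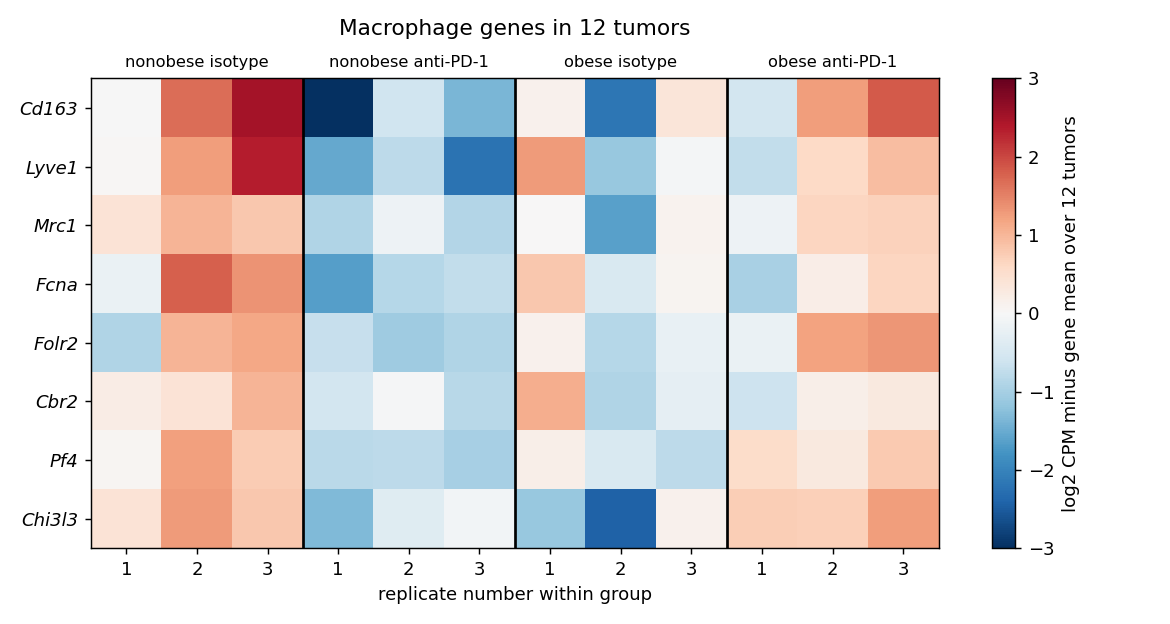
Columns are the 12 tumors in their 4 groups, rows the 8 tested genes, and color gives log2 CPM minus the gene's mean over the 12 tumors, from -3 (blue) to 3 (red). The column of obese isotype replicate 2 is blue in all rows and lowest of its group in 7 of 8, and that of obese anti–PD-1 replicate 3 is the highest of its group in all 8.

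Other macrophage genes and those of some other cell types varied along with the genes within groups. The mean standardized level of the 7 genes with at least 1 CPM on average was set beside that of the tested genes of each list, each gene with equal weight, after group means were subtracted, a summary chosen after seeing the data. It correlated at 0.91 with 20 pan-macrophage genes, 0.90 with 23 further genes of the resident and alternatively activated programs, 0.91 with 8 fibroblast genes and 0.90 with 8 blood endothelium genes, and at 0.74 with 11 genes of inflammatory macrophages and monocytes. The correlation was 0.58 with lymphatic endothelium, -0.21 with platelet and -0.55 with melanoma genes. It was 0.89 with genes of the IL-4, IL-10 and CSF1 axis, 0.71 with neutrophil and 0.52 with skeletal muscle genes. With T cell, keratinocyte, adipocyte and red blood cell genes it was 0.49, 0.44, 0.11 and -0.29. With summed CPM in place of equal weights it was 0.92 for fibroblast and 0.89 for blood endothelium genes, but 0.64 for pan-macrophage genes, where Apoe made up 68.9% of the sum, and 0.30 for the resident and alternative list, where Sepp1 and Hmox1 made up 28.4 and 27.2%. Fibroblast genes summed to between 602 and 2801 CPM in nonobese isotype, 272 and 544 in nonobese anti–PD-1, 205 and 1089 in obese isotype and 426 and 1862 in obese anti–PD-1 tumors. In obese mice 0 of the 8 fibroblast genes and 0 of the 8 blood endothelium genes passed the thresholds, with median log2 fold changes of 0.72 and 0.26, and in nonobese mice all 8 fibroblast genes had values below 0, with a median of -1.88. Lymphatic endothelium genes, the other known source of Lyve1, summed to between 30.8 and 45.8 CPM over all tumors, and 0 of the 3 tested passed in obese mice (median 0.05). Pdpn and Flt4 made up 48.8 and 40.5% of this sum, and the untested genes of the list had few or no counts. The part of these cell types in the values of the members was not tested.

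Genes outside the 9 with the nearest pattern were looked for by Pearson correlation over 12 tumors with the mean standardized level of the same 7 genes. Group means were at first not subtracted, so that this mean holds the nonobese values by which the members were partly chosen. The genes found were picked from all genes tested for a high correlation, which carries no test. Without the subtraction they were Mmp19, a matrix metalloproteinase (0.975), S1pr3, a receptor for sphingosine-1-phosphate (0.969), Emilin2, an extracellular matrix glycoprotein (0.961), Pltp, the phospholipid transfer protein (0.958), and Alox5, a lipoxygenase that starts leukotriene synthesis (0.957). After group means were subtracted, Ggt5, a gamma-glutamyltransferase (0.979), came first, followed by Clip3 (0.979), Plvap, a protein of endothelial fenestrae (0.977), Anpep, an aminopeptidase (0.972), and Ubqln4, a ubiquilin (0.968).

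Further genes of the resident and alternatively activated programs were read from a list of 27 that holds none of the 9. Of the 23 tested, 5 were upregulated by anti–PD-1 in obese mice and 0 downregulated (2.24 and 0.206% of all genes), all 23 had a log2 fold change above 0 (47.6%), and the median was 0.80. At an FDR below 0.05 the number was 0 by edgeR, with 7 at an unadjusted P below 0.05 (7.57% of all genes), and 2 by DESeq2 (0.802%). Cd36, a receptor for fatty acids and oxidized lipoproteins, was at 9.25, 10.1 and 16.4 CPM with isotype and at 22.9, 25.2 and 25.7 CPM with anti–PD-1, without overlap (log2 fold change 1.05, edgeR FDR 0.192). C4b, a complement component, was at 47.4, 27.3 and 47.9 CPM with isotype and at 62.8, 128 and 112 CPM with anti–PD-1, also without overlap (1.30, FDR 0.206). Clec10a, a galactose lectin of macrophages and dendritic cells (1.88), Ccl8, a chemokine of monocytes and T cells (1.55), and Cd209d, a lectin (2.21), were the other 3. Cd209d entered the test through the obese anti–PD-1 tumors (0.494, 0.885 and 0.730 CPM), so its call is a description. Elsewhere it was at 0.795 CPM in nonobese isotype replicate 3 and at 0.334 CPM or less in the remaining tumors. Msr1, the class A scavenger receptor (0.90, edgeR FDR 0.425), Stab1, another scavenger receptor (0.35), and Cd209f, a lectin (0.84), did not pass. In nonobese mice all 23 had values below 0 (median -0.87). The 5 in obese mice became 3 without isotype replicate 2 and 11 without anti–PD-1 replicate 1.

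The counts of the remaining lists stand beside the same 2.24% of all genes upregulated and 0.206% downregulated. Of 20 pan-macrophage genes, 3 were upregulated in obese mice, namely Csf1r, the receptor that macrophages need to survive (1.10), Aif1 (1.29) and Laptm5 (1.11), and 0 were downregulated, with a median of 0.80. Tyrobp, a signaling adaptor of myeloid receptors (0.78, edgeR FDR 0.486), C1qc (0.87), C1qa (0.90) and Emr1, which encodes F4/80 (0.83), did not pass. Of 11 genes of inflammatory macrophages and monocytes, Cd86, Cxcl9, Cxcl10 and Plac8 were upregulated (log2 fold changes 1.83, 2.36, 1.21 and 1.68), and Ptgs2, the inducible cyclooxygenase, was downregulated (-1.50), with a median of 0.98. Ly6c2, a surface protein of monocytes (1.47), and Ccr2, their receptor for the chemokine Ccl2 (0.98), did not pass. Along the axis of IL-4, IL-10 and CSF1, 2 of 13 tested genes were upregulated, Csf1r and Pparg, a nuclear receptor of lipid handling (1.22), and 0 were downregulated (median 0.50). Csf1, the ligand of Csf1r, had a log2 fold change of 0.76 (edgeR FDR 0.554), Il34, its other ligand, 0.98, Stat3, which signals for IL-10, 0.29, and Il4ra, the IL-4 receptor subunit, 0.50. Il13 had 0 counts in every tumor and Il4 1 count in all tumors together. Outside the macrophage lists, 4 of 5 T cell genes (median 3.09), 6 of 6 adipocyte genes (3.05) and 1 of 6 skeletal muscle genes (2.43) were upregulated in obese mice. The part of these cell types in the values of the members and of the macrophage and cytokine lists, Cd36 and Pparg among them, was not tested. At least Cd3d, Cd3e and Cd3g entered the test only through the obese anti–PD-1 tumors, where they are high. In every tumor of the other groups they were at 0.357 CPM or less. Cd8a and Plin1 also entered only with the help of the obese anti–PD-1 tumors. Elsewhere, Cd8a was above 0.382 CPM only in nonobese isotype replicate 2 (0.823). Outside that group, Plin1 was above 0.420 CPM only in nonobese isotype replicates 2 and 3 (1.18 and 0.511). The counts and medians of the T cell and adipocyte lists are therefore descriptions.

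To set the 9 genes beside macrophage genes of the same tumor, each was expressed as a percentage of the summed CPM of C1qa, C1qb and C1qc, the complement C1q chains that most macrophages make. This reference was chosen after the counts had been seen. C1q itself was at 172, 97.7 and 118 CPM in the obese isotype tumors and at 126, 284 and 292 CPM in the obese anti–PD-1 tumors, which overlap. Cbr2 was at 16.9, 7.37 and 9.59% of C1q with isotype and at 6.97, 5.45 and 5.68% with anti–PD-1, and Fcna was at 1.54, 1.07 and 1.34% with isotype and at 0.557, 0.605 and 0.811% with anti–PD-1. All treated tumors lay below all isotype tumors for these 2 of the 9 in obese mice (10.4% of all genes), and with 3 tumors against 3 an exact permutation test cannot give a two-sided P below 0.1. Mrc1 had means of 10.3% with isotype and 10.2% with anti–PD-1, with a wide spread among isotype tumors (5.51 to 15.4%), and Pf4 had means of 2.90 and 3.38%. Folr2 was at 2.54, 2.22 and 2.88% of C1q with isotype and at 2.73, 3.29 and 3.46% with anti–PD-1, which overlap, with a ratio of means of 1.24. Relative to C1q, Chi3l3 (0.146 and 0.386%) and Pf4 overlapped between the obese groups, unlike their CPM values.

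In nonobese mice, C1q itself was at 109, 252 and 197 CPM with isotype and at 81.2, 88.5 and 112 CPM with anti–PD-1. The 20 pan-macrophage genes and the 11 tested genes of inflammatory macrophages and monocytes all had values below 0 there, with median log2 fold changes of -0.93 and -1.18. As a description, 5 of the 9 lay lower relative to C1q in all treated tumors than in all isotype tumors (0.603% of all genes), namely Cd163, Lyve1, Fcna, Pf4 and Chi3l3. Pf4 was at 4.44, 4.34 and 4.01% of C1q with isotype and at 3.19, 3.01 and 2.03% with anti–PD-1. Cbr2 had means of 11.95% with isotype and 11.1% with anti–PD-1 and overlapped, as did Mrc1 (16.6 and 12.2%) and Folr2 (3.23 and 2.32%).

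**Figure D4:**
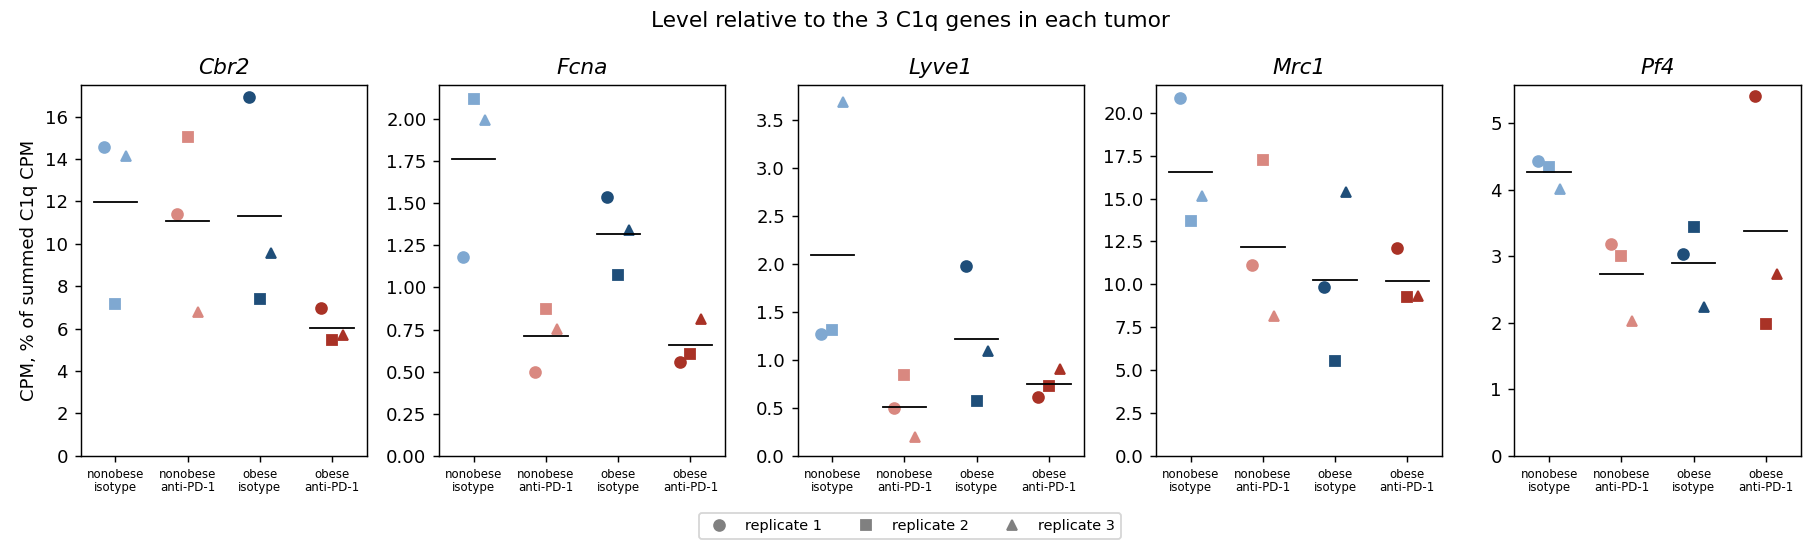
The vertical axes give the CPM of 5 genes as a percentage of the summed CPM of C1qa, C1qb and C1qc in the same tumor, from 0, with a point per tumor, its shape giving the replicate number, and a line at the mean of 3. Cbr2 and Fcna lie below their isotype tumors in all obese anti–PD-1 tumors, whereas the means of Mrc1 in obese mice are 10.3 and 10.2%.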

How the data were processed

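RNA of 12 tumors, 3 in each of 4 groups, was sequenced from stranded poly(A) libraries. The authors aligned reads to mm10 and counted them per gene, and they deposited raw counts, whole numbers without normalization. The submitters' processing notes name FastQC 0.11.5, STAR 2.7.0f, HTSeq 0.9.1 and edgeR 3.28.1, and the sources used here do not give HTSeq's strand setting. Counts without molecular identifiers carry more than counting error, so the floor of 3 counts covers counting error only.

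Here, filterByExpr of edgeR 4.0.16 (R 4.3.3) kept 13095 genes. After TMM scaling, a model of 4 group means with 8 residual degrees of freedom was tested by the quasi-likelihood F-test in its earlier form. The thresholds were those of the study's methods, an unadjusted P below 0.05 together with a fold change of more than 2, and Benjamini-Hochberg FDR was computed over all genes tested. Correlations used log2 CPM with a prior count of 2. The steps were tested on simulated data in which every gene had the same dispersion (spread beyond counting error), 0.0352. That run does not cover genes with a wider spread. DESeq2 1.42.0, RLE scaling, 2 other filters, the current form and a robust prior of the fit, models of 6 tumors, a replicate block and leaving out each tumor were the alternatives.

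The members and all gene lists were chosen with earlier results of these data known. The named genes are the members, up to 5 of each macrophage or cytokine list by smallest P in obese mice with the first 2 of the list, and the nearest genes by correlation. Il4ra was named as well, outside this rule. Cd209d and Csf1r (of the pan-macrophage list) were named for their calls, after their values were seen. Cd209b and Vsig4 were named for how they entered the test. Lists of other cell types are given by counts, with Cd3d, Cd3e, Cd3g, Cd8a and Plin1 named for how they entered the test. Pdpn and Flt4 were named for their share of a sum. P values set a difference between groups against the spread between these tumors. Protein sequences of the members were not used here, and 1 further gene of the set is not reported here.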

Additional observations from a re-analysis of the deposited data

Results flagged for a closer look

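Pf4 and Chi3l3 were flagged because all treated tumors lay below all isotype tumors in nonobese mice and above them in obese mice. Taken alone, the first held for 5.37% and the second for 5.45% of all genes. The share of all genes with both was not computed, and the nonobese part was among the values by which the genes were chosen. The log2 fold change of Pf4 with anti–PD-1 was -1.65 in nonobese and 0.86 in obese mice. The log2 fold change of Chi3l3 was -1.63 in nonobese and 2.02 in obese mice. No test of the difference between the diets is given for either gene, since both were chosen partly by their nonobese values. Chi3l3 rests on 12 counts summed over the obese isotype tumors and 47 over the obese anti–PD-1 tumors.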

How the results depend on the processing

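The members upregulated by anti–PD-1 in obese mice numbered 2, and 1 of the 4 then tested when at least 10 counts were required in every tumor. Leaving out each tumor in turn gave 0 (without obese anti–PD-1 replicate 3) to 3 (without obese anti–PD-1 replicate 1), with 1 without obese isotype replicate 2 or obese anti–PD-1 replicate 2. The resident and alternative list had 5 upregulated genes, Cd209d with its limit given above among them, and 3 to 11 when each tumor was left out. The members' median log2 fold change in obese mice was 0.81, with 0.60 to 1.10 when each tumor was left out and 0.76 to 0.84 otherwise. In nonobese mice the median of -1.64 ranged from -1.96 to -1.35 and from -1.68 to -1.51. Of 156 recomputed values of single members in obese mice, 146 kept their side of the thresholds, 7 lost the call and 3 gained it, and 9 values, none of a called gene, changed sign. All 156 in nonobese mice stayed within 1 SD of the replicates. The cause of these shifts was not tested.

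Replicate numbers are shared by the groups, but tumors of the same number come from different mice and correlated, after group means were subtracted, at -0.05 on average between the obese groups, 0.27 between the nonobese groups and 0.13 over all groups, beside -0.06 for different numbers in different groups. In obese tumors, 2 of 6 correlated best with their own number. With the number as a block, the count of upregulated members was 1 and the median 0.79, since Folr2 lost its call (1.06). Depth limits Timd4 and Chi3l3, which reach the floor of 3 counts in 10 and 3 of the 12 tumors.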

Other observations

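Pf4, which varied less closely with the other members, had neighbors of its own among all genes, by Pearson correlation of log2 CPM over 12 tumors after group means were subtracted. The nearest to Pf4 were Nod2, an intracellular sensor of bacterial peptidoglycan (0.929), Arhgap24 (0.907) and Rbm38 (0.892). These genes were picked from all genes tested for their correlation, which carries no test.

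Neutrophil genes, a list of 7 in the table, summed to between 2.59 and 5.68 CPM in obese isotype tumors and between 5.50 and 6.89 CPM in obese anti–PD-1 tumors, and 0 of the 2 tested passed the thresholds. Of the remaining lists, 0 of 7 melanoma genes (median -0.06), 0 of 2 keratinocyte genes (0.67) and 0 of 1 red blood cell gene (1.08) passed the thresholds in obese mice.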
